A study of Mus musculus with 12 samples.

Results

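The 37 genes described here encode enzymes, carriers and coactivators of the tricarboxylic acid (TCA) cycle and of mitochondrial fatty acid oxidation. They were taken by symbol from a gene count table of 53715 identifiers, from a list that was drawn up with earlier results of these data known. By role, 16 encode TCA cycle enzymes, 3 encode enzymes that feed carbon into the cycle or draw it out, 4 encode the carnitine shuttle, 9 encode beta oxidation enzymes, 3 encode the electron transfer flavoprotein system and 2 encode transcriptional coactivators. All 37 passed the filter on low counts, and the lowest count of any of them in a library was 11.

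The data are poly(A)-selected RNA-seq libraries of whole spleen, 12 in number and 4 to a group. All mice had the genotype labelled BXSB.Cg-Cd8atm1Mak Il15tm1Imx Yaa, or Yaa DKO, which combines targeted alleles of Cd8a and Il15 with the Yaa mutation, a duplication onto the Y chromosome of an X-linked segment that includes Tlr7 and that drives lupus-like disease in this strain. The first group was symptomatic, 10 weeks old, and had drinking water with 2-deoxyglucose (2DG) at 6 g/L. The second group was also 10 weeks old and symptomatic but untreated, and the third was untreated and 6 weeks old, before symptoms. There was no wild-type group and no 2DG group at 6 weeks, and no label used here gives the age at which 2DG began. The labels do not state that each sample came from its own mouse, so the p-values judge differences against a spread that may be partly technical.

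The TCA cycle oxidises acetyl-CoA in the mitochondrial matrix and hands the electrons to the respiratory chain as NADH and FADH2. Fatty acids enter the matrix as carnitine esters and are shortened by repeated rounds of beta oxidation, each of which yields acetyl-CoA for the cycle. 2DG is a glucose analogue that is phosphorylated by hexokinase and then blocks glycolysis, so both pathways lie downstream of, or beside, the step it inhibits. Resting lymphocytes rely largely on mitochondrial oxidation, while activated lymphocytes and plasma cells add a high demand for glycolysis and for the biosynthetic precursors that the cycle supplies.

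Total counts ran from 21581820 to 23835453 in the 2DG libraries, from 20692818 to 26079979 in the untreated 10-week libraries and from 15596040 to 22480545 in the 6-week libraries. Levels are CPM, the count scaled to the TMM-normalised library total, listed for replicates 9 to 12 (2DG), 5 to 8 (untreated, 10 weeks) and 1 to 4 (untreated, 6 weeks). Adjusted p-values are from edgeR's quasi-likelihood test with Benjamini-Hochberg adjustment over 18542 genes, and 0.05 is the threshold throughout. In whole spleen, fewer cells of a type and less RNA per cell cannot be told apart. Markers of cell types differed between the groups. The summed level of 12 plasma cell markers ran from 2239 to 3267 CPM with 2DG, from 4465 to 7687 CPM without it at 10 weeks and from 2945 to 4904 CPM at 6 weeks. All 12 had a log2 change below 0 with 2DG at 10 weeks, and 10 passed the threshold as lower, beside 5.26% of all genes. The sum of 12 erythroid markers was 19391, 24188, 20145 and 11510 CPM with 2DG, 8097, 2482, 18496 and 8402 CPM in untreated spleens at 10 weeks, and 6402 to 9476 CPM at 6 weeks. No marker in these 2 sums was at 0 in every library. Ahsp, a further listed symbol, was not found among the counted genes and is in neither sum.

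The promoters of 3 members are shown for their layout, and no level below was traced to these sequences. Pcx has 2 annotated starts. Hadha and Hadhb, which encode the subunits of a single enzyme complex, are transcribed away from each other from starts 273 bases apart. Each window runs from 250 bases before to 50 bases after a RefSeq start (GRCm38.p6), 5′ to 3′ on the strand of the gene. Capitals mark the GC box, GGGCGG or its reverse complement CCGCCC, which was searched on both strands.
Pcx first start, chr19:4510222-4510521, plus strand: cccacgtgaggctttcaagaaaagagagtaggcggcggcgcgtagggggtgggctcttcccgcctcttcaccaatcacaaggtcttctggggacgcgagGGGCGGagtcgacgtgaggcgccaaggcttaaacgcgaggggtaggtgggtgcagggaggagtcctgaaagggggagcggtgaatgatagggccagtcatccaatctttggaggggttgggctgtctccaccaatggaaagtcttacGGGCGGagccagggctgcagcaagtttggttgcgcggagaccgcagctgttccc
Pcx second start, chr19:4594069-4594368, plus strand: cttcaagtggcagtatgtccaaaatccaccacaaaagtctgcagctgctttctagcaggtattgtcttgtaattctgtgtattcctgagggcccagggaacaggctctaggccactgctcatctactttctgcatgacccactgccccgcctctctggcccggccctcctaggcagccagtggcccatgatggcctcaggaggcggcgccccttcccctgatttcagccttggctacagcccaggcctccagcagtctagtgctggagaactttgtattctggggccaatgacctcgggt
Hadha, chr5:30154931-30155230, minus strand: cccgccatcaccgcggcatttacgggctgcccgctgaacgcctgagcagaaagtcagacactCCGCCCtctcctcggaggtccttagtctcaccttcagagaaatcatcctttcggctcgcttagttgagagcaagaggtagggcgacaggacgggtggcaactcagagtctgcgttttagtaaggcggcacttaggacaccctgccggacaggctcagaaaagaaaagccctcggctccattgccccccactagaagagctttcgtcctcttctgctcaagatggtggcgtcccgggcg
Hadhb, chr5:30155003-30155302, plus strand: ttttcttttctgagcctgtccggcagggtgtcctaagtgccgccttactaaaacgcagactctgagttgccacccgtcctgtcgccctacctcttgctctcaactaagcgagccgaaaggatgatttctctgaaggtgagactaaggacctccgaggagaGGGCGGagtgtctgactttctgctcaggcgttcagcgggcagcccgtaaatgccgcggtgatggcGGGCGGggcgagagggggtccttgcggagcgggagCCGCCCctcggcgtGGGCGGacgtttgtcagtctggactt

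The first Pcx window held 2 GC boxes and the second held 0. The Hadha and Hadhb windows overlap by 228 bases, and they held 1 and 4 GC boxes. RefSeq windows were found for 32 of the 37 members, 39 windows in all; none was available here for Me2, Acaa2, Ppargc1b, Idh3a and Cpt1b. A GC box lay in 28 of the 39 windows (71.8%), against 35.7% of all 32851 mouse promoter windows of the same length; windows of members with several starts, and those of Hadha and Hadhb, share bases or a gene. TATAAA, the TATA box, lay in 0 of the 39 and in 13.6% of all windows. AAGGTCA, the half-site read by several nuclear receptors, lay in 2 of the 39 (5.13%; Acadm and Ogdh) and in 4.72% of all windows. Its extended form TCAAGGTCA, named for the estrogen-related receptors, lay in 0 of the 39 and in 0.423% of all windows. These are letter matches in a short window and say nothing of binding.

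On the TMM-scaled level, the sum over the members was close between the 10-week groups. It averaged 2986 ± 29.4 CPM in 2DG spleens and 2989 ± 67.5 CPM in untreated spleens at 10 weeks, against 2889 ± 17.3 CPM at 6 weeks (SD, n = 4 each). Over all 12 libraries the sum ran from 2863 to 3089 CPM. As a share of the total counts before TMM scaling, the members took 0.298%, 0.303%, 0.309% and 0.306% with 2DG, against 0.286%, 0.285%, 0.276% and 0.296% at 10 weeks without it and 0.288%, 0.296%, 0.297% and 0.303% at 6 weeks. On that scale every 2DG library lay above every untreated 10-week library, so the comparison of sums depends on the scaling. The TMM factors ran from 1.00 to 1.04 with 2DG and from 0.927 to 1.00 without it at 10 weeks. The erythroid sum above spanned 2482 to 24188 CPM over the same libraries. Members also had a lower median coefficient of variation between replicates than all genes. The median over members was 4.86% with 2DG, 9.65% in untreated spleens at 10 weeks and 4.75% at 6 weeks, and over all tested genes it was 9.66%, 16.6% and 10.3% in those groups. All tested genes include many of lower count, so this comparison is not matched for level.

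**Figure D1:**
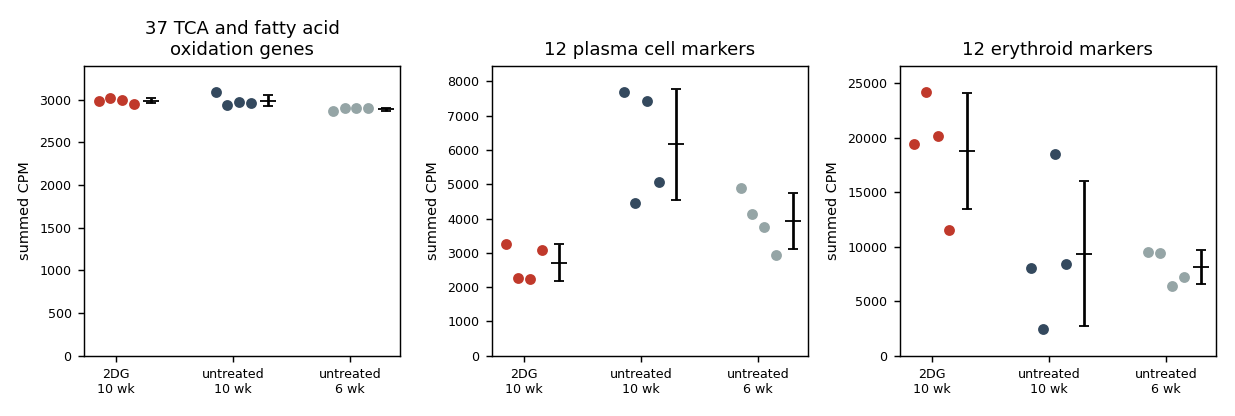
Summed level in CPM of the 37 members (left), of 12 plasma cell markers (middle) and of 12 erythroid markers (right) in each library, by group, with the group mean and SD (n = 4). The sum over members lies between 2863 and 3089 CPM in every library, while the erythroid sum runs from 2482 to 24188 CPM.

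Per kilobase of exon, averaged over the 12 libraries, the order of the members was led by Mdh1 at 68.5 ± 7.19 CPM per kb and Acadl at 63.1 ± 7.27 CPM per kb (SD over 12 libraries), whose levels overlap within that spread. Mdh2 followed at 45.4 ± 2.92 CPM per kb, then Cs at 39.3 ± 2.69, Glud1 at 38.6 ± 1.86, Ogdh at 38.4 ± 2.46 and Idh3g at 38.4 ± 1.09 CPM per kb, and the last 4 did not differ beyond their spread. At the low end stood Hadhb at 3.05 ± 0.329, Pcx at 2.72 ± 0.906, Ppargc1b at 1.81 ± 0.158, Ppargc1a at 0.269 ± 0.0471 and Cpt1b at 0.208 ± 0.0479 CPM per kb. The 2 lowest overlap within their spread. Exon length here is the union of all annotated exons, so members with long, rarely used exons are placed too low.

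The first comparison set 2DG-treated against untreated spleens at 10 weeks, and asks which transcripts differ in mice given this inhibitor of glycolysis at the symptomatic age. Across all genes 1376 of 18542 (7.42%) passed the threshold, 401 of them higher (2.16%) and 975 lower (5.26%) with 2DG. None of the 37 members did. Unadjusted p was under 0.05 for 9 members, against 24.5% of all genes; DESeq2 called 3 of the 37 (Pcx, Mdh1 and Acads), beside 11.4% of all genes, and limma voom called 0, beside 7.16%. The log2 changes of the members ran from -0.25 (Mdh1) to 0.61 (Pcx), 17 of them above and 20 below 0, with a median of -0.0029 beside 0.0096 over all genes. For 35 of the 37 the 95% interval of the fold change lay wholly within 1.5-fold in either direction; Pcx and Cpt1b were the exceptions. The same held for 56.6% of all tested genes. The median standard error of a log2 change was 0.075 for members and 0.14 for all genes. A p above the threshold does not show that 2 levels were equal, and the intervals give the sizes that remain possible.

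**Figure D2:**
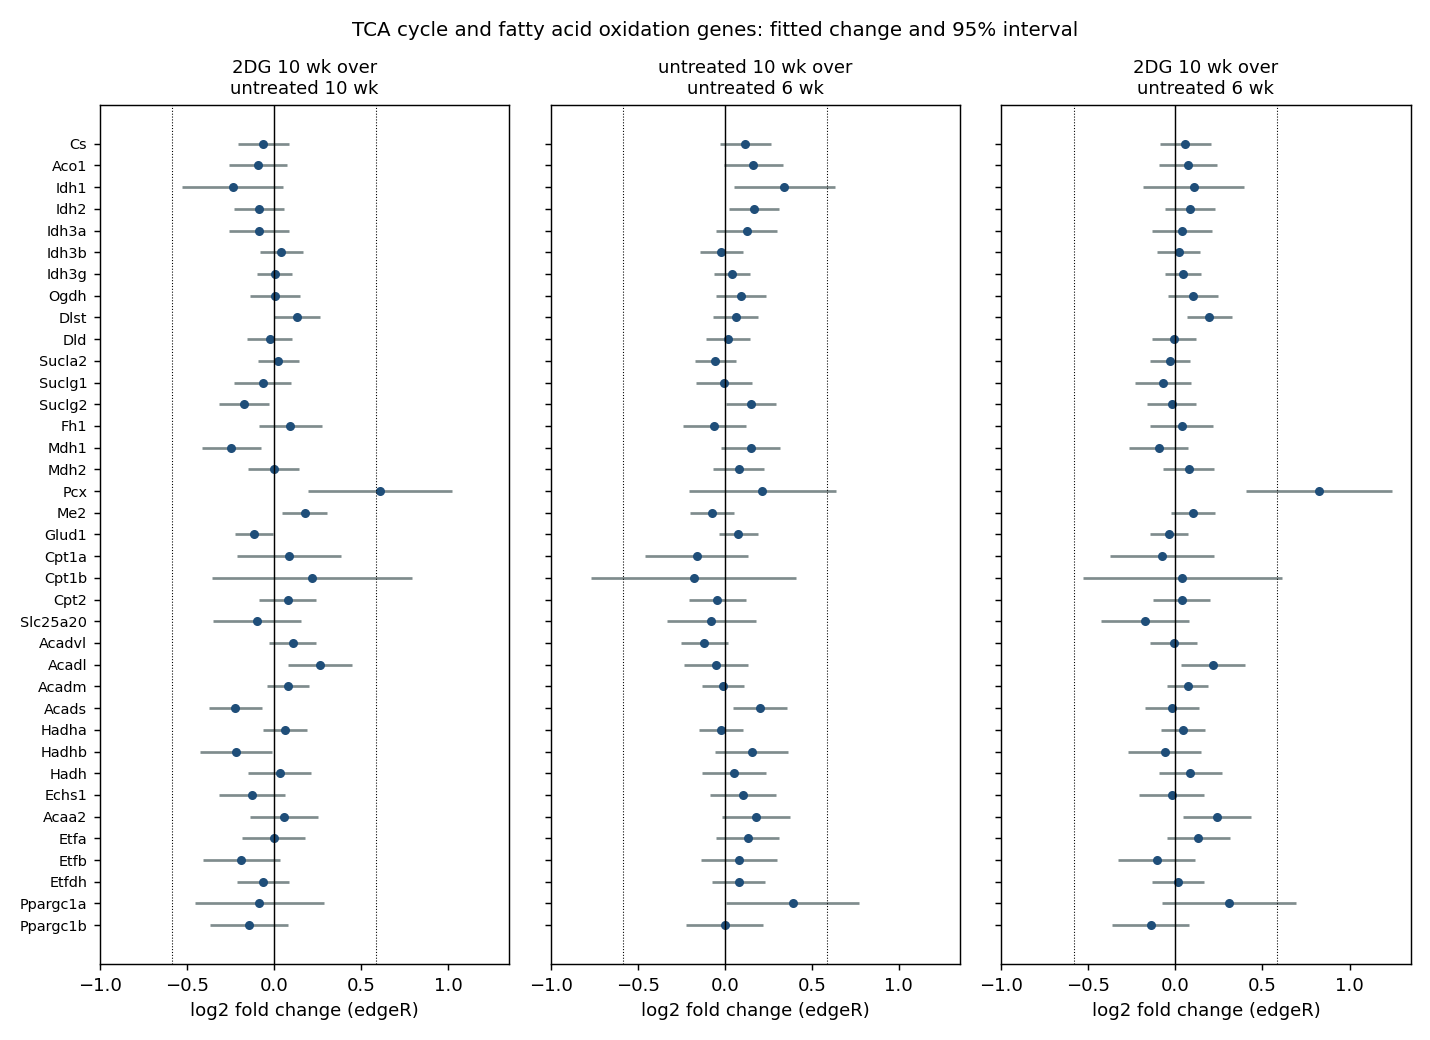
Log2 change of each of the 37 members in the 3 comparisons, grouped by role, with bars for the 95% interval of the edgeR fit and dotted lines at a 1.5-fold change either way. No member passed the threshold in any comparison; in 2DG against untreated spleens at 10 weeks the values lie between -0.25 (Mdh1) and 0.61 (Pcx).

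Of the 16 TCA cycle enzymes, 6 had a log2 change above 0 with 2DG and 10 below it, with a median of -0.043. Mdh1, the cytosolic malate dehydrogenase of the malate-aspartate shuttle (chr11:21556787-21572367, minus strand, GRCm38), stood at 169, 149, 158 and 171 CPM with 2DG, against 221, 173, 188 and 186 CPM in untreated spleens at 10 weeks and 176, 183, 175 and 159 CPM at 6 weeks. Every 2DG library lay below every untreated 10-week library, but the 2DG and 6-week libraries overlapped. The sum of the plasma cell markers was likewise lower in every 2DG library, at 3267, 2261, 2239 and 3083 CPM with 2DG against 7687, 4465, 7413 and 5078 CPM without it at 10 weeks, and their part in the Mdh1 value was not tested. The log2 change of Mdh1 was -0.25 (SE 0.078, adjusted p = 0.0743), a fold of 0.843 with a 95% interval of 0.749 to 0.948. It passed without untreated replicate 6 (adjusted p = 0.0300), the untreated 10-week library with the lowest Mdh1. Over all alternatives its adjusted p ran up to 0.209. Mdh2, the mitochondrial isoform that closes the cycle, averaged 164 ± 6.25 CPM with 2DG and 165 ± 15.9 CPM without it at 10 weeks (SD, n = 4 each).

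Suclg2, the GTP-forming beta subunit of succinyl-CoA synthetase, stood at 27.1, 27.7, 26.5 and 26.6 CPM with 2DG, against 32.9, 32.2, 28.2 and 28.5 CPM at 10 weeks without it and 27.2, 27.9, 26.8 and 27.6 CPM at 6 weeks. The untreated 10-week libraries were the high ones, above all 8 others, and the log2 change was -0.17 (SE 0.066, adjusted p = 0.125). The ATP-forming subunit Sucla2 averaged 55.7 ± 0.698 CPM with 2DG and 54.8 ± 1.37 CPM without it, and the shared alpha subunit Suclg1 averaged 72.7 ± 2.45 and 76.1 ± 8.26 CPM in those groups. Dlst, the succinyltransferase core of the 2-oxoglutarate dehydrogenase complex, was at 186, 212, 187 and 179 CPM with 2DG, against 176, 175, 175 and 169.9 CPM in untreated 10-week spleens and 172, 163, 175 and 158 CPM at 6 weeks. All 4 2DG libraries lay above the 8 others, by little, and the log2 change at 10 weeks was 0.13 (SE 0.061, adjusted p = 0.196). For the other subunits of that complex the groups overlapped: Ogdh averaged 215 ± 14.98 CPM with 2DG and 214 ± 14.1 CPM without it, and Dld 117 ± 3.34 and 119 ± 7.02 CPM.

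Cs, citrate synthase, which condenses acetyl-CoA with oxaloacetate, stood at 236, 234, 223 and 214 CPM with 2DG, against 268, 214, 233 and 231 CPM at 10 weeks without it and 224, 216, 221 and 211 CPM at 6 weeks. Its groups overlapped and the 95% interval of the fold at 10 weeks was 0.866 to 1.06. Idh1, the cytosolic NADP-linked isocitrate dehydrogenase, was at 54.6, 53.5, 56.5 and 49.0 CPM with 2DG, against 50.4, 82.8, 66.2 and 52.2 CPM at 10 weeks without it and 44.2, 53.7, 51.8 and 49.0 CPM at 6 weeks. The spread lay in the untreated 10-week group, where replicates 6 and 7 were the high ones, and the log2 change was -0.24 (SE 0.13, adjusted p = 0.306). Untreated replicate 6 also had the highest sum over 10 splenic macrophage markers, 4497 CPM, against 2571 to 2823 CPM in 2DG libraries. Its sum over 10 neutrophil and precursor markers was the highest as well, 3471 CPM, against 782 to 2045 CPM in 2DG libraries. Its sums of mature B cell, dividing cell and erythroid markers were the lowest, at 3122, 1565 and 2482 CPM. The part of any of these differences in the Idh1 value was not tested. Idh2, the mitochondrial NADP-linked isoform, was at 54.9, 58.7, 55.8 and 53.4 CPM with 2DG, against 57.6, 66.2, 59.2 and 53.4 CPM at 10 weeks without it and 52.0, 52.6, 54.3 and 51.5 CPM at 6 weeks. Its 2DG and untreated 10-week ranges overlapped.

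Of the remaining cycle enzymes, Aco1, the cytosolic aconitase that doubles as iron regulatory protein, averaged 56.0 ± 1.29 CPM with 2DG and 59.7 ± 6.87 CPM without it at 10 weeks. The subunits of the NAD-linked isocitrate dehydrogenase averaged 73.9 ± 5.43 and 78.5 ± 4.32 CPM (Idh3a), 115 ± 2.80 and 112 ± 7.80 CPM (Idh3b) and 105 ± 2.85 and 105 ± 3.49 CPM (Idh3g) in those groups. Fumarase, Fh1, averaged 99.1 ± 2.14 CPM with 2DG and 92.8 ± 12.6 CPM without it (SD, n = 4 in each case). None of these 5 had an adjusted p below 0.497.

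Of the 3 genes at the points of carbon entry and exit, 2 had a log2 change above 0 with 2DG. Pcx encodes pyruvate carboxylase, which makes oxaloacetate from pyruvate and so refills the cycle (chr19:4510472-4621752, plus strand). It stood at 19.7, 21.3, 16.7 and 12.0 CPM with 2DG, against 12.1, 8.17, 14.1 and 11.5 CPM at 10 weeks without it and 9.92, 11.9, 8.66 and 8.90 CPM at 6 weeks. Replicates 9, 10 and 11 of the 2DG group lay above every untreated library, and replicate 12 lay within the untreated 10-week range. The log2 change was 0.61 (SE 0.19, adjusted p = 0.0729), a fold of 1.52 with a 95% interval of 1.14 to 2.03. It was the largest log2 change among the 37 members in this comparison. Pcx passed without untreated replicate 7 (adjusted p = 0.0467) or without 2DG replicate 12 (adjusted p = 0.0285). Those were its highest untreated and its lowest 2DG library. Over all alternatives its adjusted p ran up to 0.211. The erythroid markers moved with Pcx: their sum was 11510 CPM in replicate 12, the lowest of the 2DG group, 18496 CPM in untreated replicate 7, where Pcx was highest among untreated libraries, and 2482 CPM in untreated replicate 6, where Pcx was lowest. Of the 12 erythroid markers 1 passed as higher with 2DG at 10 weeks, beside 2.16% of all genes. The sum of 10 dividing cell markers was also lowest of the 2DG group in replicate 12, at 2310 CPM. It was 3287 CPM in replicate 7 and 1565 CPM in replicate 6, the highest and lowest of the untreated 10-week group. The sum of 8 platelet and megakaryocyte markers was likewise lowest in replicate 12 (296 CPM) and highest in replicate 7 (380 CPM) of those groups. The T cell sum went the other way in the 2DG group, highest in replicate 12. The part of any of these cell types in the Pcx value was not tested. The counts are of the whole gene and do not separate its 2 annotated starts.

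Me2, the mitochondrial NAD-linked malic enzyme, which turns malate into pyruvate, stood at 114, 124, 119 and 113 CPM with 2DG, against 94.3, 109.7, 106 and 106 CPM in untreated 10-week spleens and 105, 109.7, 114 and 109 CPM at 6 weeks. The 2DG and untreated 10-week libraries did not overlap; the log2 change was 0.18 (SE 0.059, adjusted p = 0.0884), a fold of 1.13. Glud1, glutamate dehydrogenase, which passes glutamate carbon into the cycle as 2-oxoglutarate, averaged 157 ± 5.89 CPM with 2DG and 170.1 ± 7.00 CPM without it at 10 weeks, with a log2 change of -0.12 (adjusted p = 0.189).

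Over all members, the 2DG and untreated 10-week libraries were fully separated for 2 genes in the upward direction, Me2 and Dlst, and for 2 in the downward direction, Mdh1 and Suclg2. That is 2 of 37 each way, beside 4.48% of all genes upward and 7.91% downward, so the share is near the background.

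The carnitine shuttle brings long-chain fatty acids into the matrix, and its 4 genes showed no difference that passed. Cpt1a, the carnitine palmitoyltransferase of the outer membrane and the rate-controlling step of long-chain oxidation, stood at 138, 135, 155 and 156 CPM with 2DG, against 128, 157, 115 and 151 CPM at 10 weeks without it and 119.7, 158, 143 and 195 CPM at 6 weeks. The 3 groups overlapped, and the fold with 2DG at 10 weeks was 1.06 with an interval of 0.862 to 1.30. Cpt1b, the muscle isoform, was low, at 0.631, 0.879, 0.823 and 0.625 CPM with 2DG, against 0.574, 0.798, 0.495 and 0.682 CPM and 0.487, 0.928, 0.574 and 0.920 CPM in untreated spleens at 10 and 6 weeks. With 11 to 21 counts per library its interval, 0.780 to 1.73, is too wide to place a change. Cpt2, the inner-membrane enzyme that restores acyl-CoA, averaged 20.0 ± 1.33 CPM with 2DG and 18.9 ± 1.32 CPM without it, and the carrier Slc25a20 averaged 25.2 ± 2.16 and 27.0 ± 4.31 CPM (SD, n = 4 each).

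Among the 9 beta oxidation enzymes, 6 had a log2 change above 0 and 3 below, with a median of 0.057. The acyl-CoA dehydrogenases, which take the first step on chains of different length, gave values in both directions. Acadl, for long chains (chr1:66830839-66863277, minus strand), stood at 130.1, 139, 146 and 149 CPM with 2DG, against 105, 111, 113 and 139.9 CPM at 10 weeks without it and 116, 124, 116 and 129 CPM at 6 weeks. The 2DG libraries exceeded all others except untreated replicate 8, and the log2 change was 0.27 (SE 0.085, adjusted p = 0.0753). Acads, for short chains (chr5:115110299-115119346, minus strand), stood at 22.8, 22.3, 21.9 and 24.4 CPM with 2DG, against 27.8, 28.5, 26.2 and 24.1 CPM at 10 weeks without it and 23.7, 22.1, 24.0 and 22.8 CPM at 6 weeks. Here replicate 8 was the lowest of its group and overlapped the 2DG range, and the log2 change was -0.22 (SE 0.071, adjusted p = 0.0745). Without untreated replicate 8, the library that overlapped the 2DG range for both genes, both passed, Acadl at an adjusted p of 0.00491. In that fit 11.8% of all genes passed. Over all alternatives the adjusted p ran up to 0.181 for Acadl and 0.200 for Acads. Acadvl, for very long chains, averaged 31.5 ± 1.21 CPM with 2DG and 29.3 ± 0.849 CPM without it, and Acadm, for medium chains, 60.8 ± 1.43 and 57.5 ± 2.69 CPM.

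Hadha and Hadhb encode the alpha and beta subunits of the mitochondrial trifunctional protein, which carries out the later steps on long chains. Hadha had the lowest coefficient of variation of the 37 members at 6 weeks, 0.558%. It stood at 197, 197, 199.6 and 192 CPM with 2DG, against 203, 167, 191 and 191 CPM at 10 weeks without it and 192, 191, 189 and 191 CPM at 6 weeks; its fold at 10 weeks was 1.05 with an interval of 0.958 to 1.14. Hadhb stood at 20.1, 18.6, 16.5 and 20.0 CPM with 2DG. In untreated spleens it was at 23.9, 24.1, 20.9 and 18.5 CPM at 10 weeks and 20.2, 19.8, 19.7 and 18.8 CPM at 6 weeks. Its log2 change at 10 weeks was -0.22 (adjusted p = 0.186). It passed without untreated replicate 8 (adjusted p = 0.0497), its lowest untreated 10-week library. Over all alternatives its adjusted p ran up to 0.410. Per kilobase of exon Hadha averaged 21.9 CPM and Hadhb 3.05 CPM over the 12 libraries. Their promoter windows overlap, and any part of those sequences in these levels was not tested. How reads that match several loci were counted is not stated, and its effect on these levels was not tested. Acaa2, the acetyl-CoA acyltransferase that releases acetyl-CoA, was at 43.8, 43.8, 40.3 and 40.0 CPM with 2DG, against 36.6, 48.9, 40.1 and 35.9 CPM at 10 weeks without it and 34.5, 37.4, 34.6 and 36.0 CPM at 6 weeks. Its 10-week groups overlapped. Echs1, the short-chain enoyl-CoA hydratase, averaged 38.0 ± 0.770 CPM with 2DG and 41.5 ± 6.07 CPM without it, and Hadh, the 3-hydroxyacyl-CoA dehydrogenase, 39.7 ± 2.58 and 38.9 ± 3.89 CPM.

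The electron transfer flavoprotein takes electrons from the acyl-CoA dehydrogenases, and its dehydrogenase Etfdh passes them to ubiquinone. Etfa averaged 56.6 ± 5.07 CPM with 2DG and 56.7 ± 5.63 CPM without it at 10 weeks, Etfb 8.18 ± 0.447 and 9.32 ± 0.900 CPM, and Etfdh 48.9 ± 1.87 and 51.2 ± 4.34 CPM (SD, n = 4 each). All 3 log2 changes were at or below 0, from -0.19 to -0.0013, and none passed.

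Both coactivators, which amplify transcription of mitochondrial genes, were low. Ppargc1a stood at 2.02, 1.97, 1.73 and 1.70 CPM with 2DG, against 1.57, 1.74, 2.27 and 2.26 CPM at 10 weeks without it and 1.2, 1.55, 1.67 and 1.60 CPM at 6 weeks. The 10-week groups overlapped, with a fold of 0.944 and an interval of 0.729 to 1.22. Ppargc1b was at 6.44, 6.44, 7.32 and 6.83 CPM with 2DG, against 8.50, 7.79, 6.89 and 6.69 CPM at 10 weeks without it and 7.31, 7.12, 7.94 and 7.49 CPM at 6 weeks, with an interval of 0.776 to 1.06 for the fold at 10 weeks.

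**Figure D3:**
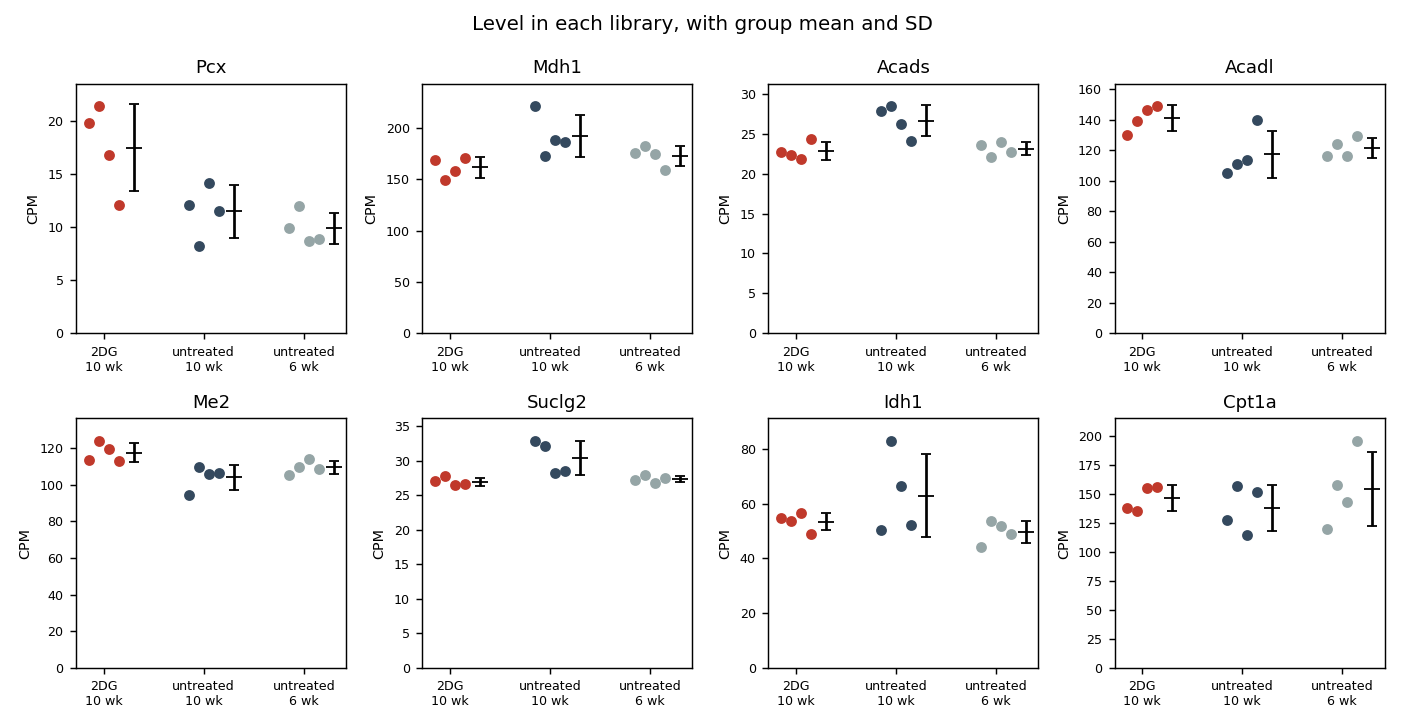
Level in CPM of 8 members in each library (points), by group, with the group mean and SD (n = 4). Replicates 9 to 11 of the 2DG group stand above every untreated library for Pcx, the 2DG libraries stand below the untreated 10-week libraries for Mdh1 and Suclg2 and above them for Me2, and Cpt1a overlaps in all groups.

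The second comparison set untreated, symptomatic spleens at 10 weeks against separate untreated spleens at 6 weeks, before symptoms. Age and symptoms differ together between these groups and cannot be told apart. The second comparison shares its 10-week libraries with the first. A single gene of the 18542 passed (0.00539%), Cd8a with a log2 change of -0.92 (adjusted p = 0.036), and 0 of the 37 members did. Unadjusted p was under 0.05 for 5 members, against 17.1% of all genes, and DESeq2 and limma voom each called 0, beside 3.76% and 0.0971% of all genes. Of the members, 23 had a log2 change above 0 at 10 weeks and 14 below, with a median of 0.078 beside 0.0073 over all genes and a range of -0.18 (Cpt1b) to 0.39 (Ppargc1a). By pathway, 12 of the 16 TCA cycle enzymes lay above 0 (median 0.087), while the beta oxidation enzymes were split 5 above and 4 below and all 4 carnitine shuttle genes lay below 0, down to -0.18. For 33 of the 37 the 95% interval lay within 1.5-fold, against 59.3% of all genes, the exceptions being Idh1, Pcx, Cpt1b and Ppargc1a.

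Acads had the smallest p, with 4 untreated 10-week libraries above all 4 of the 6-week libraries in the values given above, a log2 change of 0.20 and an adjusted p of 0.182 (SE 0.071). Suclg2 was likewise fully separated upward, with a log2 change of 0.15. These 2 of 37 stand beside 3.64% of all genes separated upward; 0 members were separated downward, beside 3.33% of all genes. Idh2 gave 0.17 and Idh1 0.34, both with an adjusted p of 0.219, and for Idh1 the high values were again replicates 6 and 7. Ppargc1a gave 0.39 with an interval of 1.00 to 1.71 for the fold. Without untreated replicate 8, 1563 genes passed in this comparison, among them Aco1 and Acads. That replicate held the highest sum of 10 mature B cell markers, 6253 CPM, against 3122 to 4648 CPM in the other untreated 10-week libraries; the part of that difference in these calls was not tested.

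The third comparison set 2DG-treated spleens at 10 weeks against untreated spleens at 6 weeks, and asks how far treated spleens stood from the state before symptoms. It shares its 2DG libraries with the first comparison and its 6-week libraries with the second. Of all genes 24 passed (0.129%), 7 higher (0.0378%) and 17 lower (0.0917%), and 0 of the 37 members did. Unadjusted p was under 0.05 for 4 members, against 16.9% of all genes; DESeq2 called 1 of the 37 (Pcx), beside 5.64% of all genes, and limma voom 3 (Dlst, Pcx and Acaa2), beside 8.98%. The member changes ran from -0.17 (Slc25a20) to 0.82 (Pcx), 23 above and 14 below 0, with a median of 0.038 beside -0.0023 over all genes. The 95% interval lay within 1.5-fold for 34 of the 37, all but Pcx, Cpt1b and Ppargc1a, against 59.5% of all genes.

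Pcx had the smallest p and the largest log2 change, with every 2DG library above every 6-week library. Its log2 change was 0.82 (SE 0.19, adjusted p = 0.0865), a fold of 1.77 with an interval of 1.32 to 2.36, and all 12 erythroid markers were separated in the same direction. Pcx passed without untreated 10-week replicate 6 or 7 or without 2DG replicate 12, with an adjusted p of 0.0414, 0.0486 and 0.0308. In those fits 1.83%, 1.89% and 1.53% of all genes passed. The untreated 10-week libraries are in the fit but not in this comparison, and without replicate 6 or 7 the log2 change stayed at 0.83 and 0.82. With only the 2 groups compared, 1367 of all genes passed (7.54%). Over all alternatives the adjusted p of Pcx ran up to 0.277. By p-value, Dlst followed at 0.20 (SE 0.061, adjusted p = 0.133), then Acaa2 at 0.24 (SE 0.091, adjusted p = 0.205) and Acadl at 0.22 (SE 0.085, adjusted p = 0.215). With Hadha and Ppargc1a these made 6 members whose 2DG libraries all lay above the 6-week libraries, beside 7.98% of all genes, and 0 in the other direction, beside 7.69%. For Hadha the separation was slight, with 191.9 CPM in the lowest 2DG library against 191.8 CPM in the highest 6-week library and a log2 change of 0.04. Mdh1, Acads and Suclg2, which lay below 0 in the first comparison but did not pass there, gave log2 changes of -0.10, -0.02 and -0.02 against 6 weeks. Pcx, Acadl, Me2 and Dlst, which lay above 0 there and did not pass either, gave 0.82, 0.22, 0.10 and 0.20.

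Ratios of 2 members within a library do not depend on how libraries are scaled, and 8 pairs of isoforms or partner subunits were compared in each of the 3 comparisons, 24 two-sided exact permutation tests in all. With 4 against 4 libraries the smallest p is 0.0286, and 3 tests reached it. After Benjamini-Hochberg adjustment over the 24 none passed (adjusted p = 0.229 for each of the 3). From that smallest p a few pairs alone could not have passed, so this outcome cannot decide whether their ratios differed. The ratio of cytosolic to mitochondrial malate dehydrogenase, Mdh1 to Mdh2, was 1.05, 0.893, 0.921 and 1.08 with 2DG, against 1.2, 1.17, 1.11 and 1.17 at 10 weeks without it and 1.09, 1.15, 1.12 and 1.08 at 6 weeks. It was lower in 4 of 4 2DG libraries than in any untreated 10-week library, with a log2 difference of -0.24. The ratio of the ATP-forming to the GTP-forming succinyl-CoA synthetase subunit, Sucla2 to Suclg2, was 2.03, 2.02, 2.13 and 2.08 with 2DG, against 1.65, 1.75, 1.89 and 1.95 at 10 weeks without it and 2.27, 1.92, 2.10 and 2.04 at 6 weeks. It was higher in 4 of 4 2DG libraries, by 0.20 on the log2 scale, and the low libraries were the untreated ones of 10 weeks. The ratio of Ppargc1a to Ppargc1b averaged 0.276 ± 0.0391 with 2DG and 0.201 ± 0.0252 at 6 weeks (SD, n = 4 each) and was the third at that p, by 0.45. The subunit ratio Hadha to Hadhb averaged 10.5 ± 1.13 with 2DG and 8.71 ± 1.43 without it at 10 weeks, and the libraries overlapped (exact permutation p = 0.114, adjusted 0.305).

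**Figure D4:**
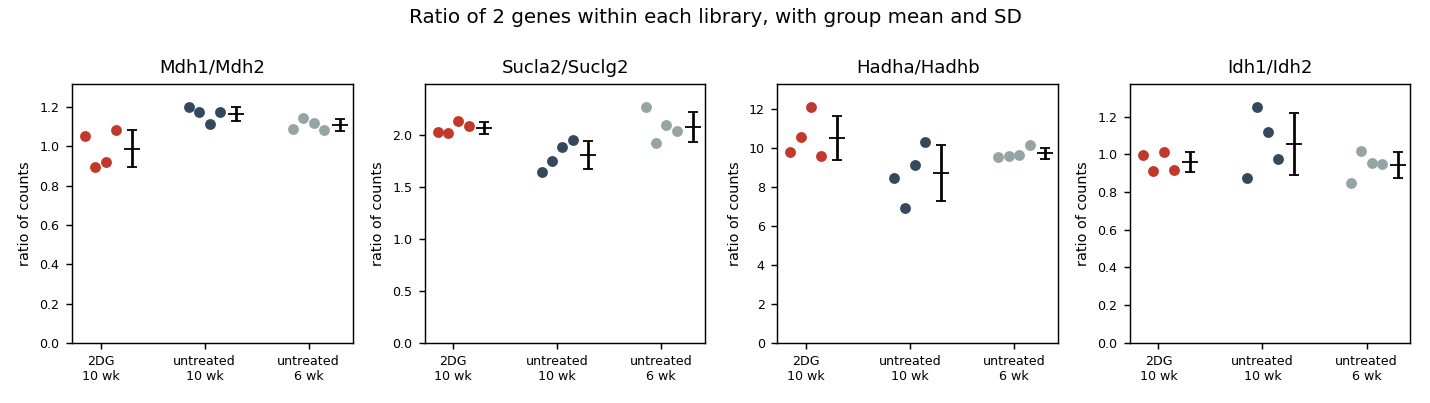
Ratio of the counts of 2 genes within each library (points) for 4 pairs, by group, with the group mean and SD (n = 4). Mdh1 to Mdh2 is lower and Sucla2 to Suclg2 is higher in all 2DG libraries than in any untreated 10-week library, while Hadha to Hadhb and Idh1 to Idh2 overlap.

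Around the members, 102 further genes of the same pathways were read from the same fit, and 97 passed the filter on low counts; Esrrb, Fabp3, Me3, Ppara and Slc27a2 did not. With 2DG at 10 weeks 0 of the 97 passed as higher and 3 as lower, beside 2.16% and 5.26% of all genes, and the median log2 change was 0.014. DESeq2 called 8 of the 97 in that comparison, beside 11.4% of all genes, and limma voom 5, beside 7.16%. In each of the other 2 comparisons 0 of the 97 passed by edgeR, with an unadjusted p under 0.05 for 15 with age and 14 for 2DG against 6 weeks. DESeq2 called 0 with age and 3 for 2DG against 6 weeks (Pck2, Acsl1 and Crat), and limma voom called 0 and 4, beside 3.76% and 5.64% of all genes by DESeq2 and 0.0971% and 8.98% by voom. All 3 that passed as lower by edgeR belong to the 16 tested genes of carbon exchange with the cycle. Got1, the cytosolic aspartate aminotransferase, stood at 30.3, 27.6, 28.9 and 30.7 CPM with 2DG, against 49.5, 53.7, 40.3 and 34.6 CPM at 10 weeks without it and 39.3, 38.1, 33.5 and 31.7 CPM at 6 weeks. Every 2DG library was below all 8 untreated libraries, and Got1 fell by 0.60 on the log2 scale (SE 0.12, adjusted p = 0.0125), a call kept under all 20 alternatives. Got2, its mitochondrial partner, stood at 41.5, 36.2, 36.3 and 37.2 CPM with 2DG, against 58.9, 45.2, 45.0 and 44.2 CPM at 10 weeks without it and 41.2, 36.1, 39.1 and 41.7 CPM at 6 weeks. It fell by 0.35 (SE 0.095, adjusted p = 0.0407), and the 2DG and 6-week libraries overlapped. Its call was lost when any of replicates 1 to 5 or 10 to 12 was left out, by limma voom (adjusted p = 0.0515) and with only the 2 groups compared (adjusted p = 0.104).

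Got1 and Got2 work with Mdh1 and Mdh2 in the malate-aspartate shuttle, which moves reducing equivalents from cytosolic NADH into mitochondria. Of these 4 genes, Got1 and Got2 passed, Mdh1 had an adjusted p of 0.0743 and Mdh2 one of 0.985. The carriers of the shuttle did not pass, with an adjusted p of 0.877 for Slc25a11, 0.973 for Slc25a12 and 0.378 for Slc25a13. Plasma cell markers moved in the same direction as Got1 and Got2 over these groups, with the sums given above. Within the untreated 10-week group the order of libraries differed for Got1. In replicates 5 to 8 it stood at 49.5, 53.7, 40.3 and 34.6 CPM, beside plasma cell sums of 7687, 4465, 7413 and 5078 CPM. Got2 and the sum were both highest in replicate 5. The part of plasma cells in the fall was not tested. Acod1, which decarboxylates the cycle intermediate cis-aconitate to itaconate in activated macrophages, stood at 0.253, 0.335, 0.563 and 0.759 CPM with 2DG, against 3.50, 1.08, 1.57 and 1.58 CPM at 10 weeks without it and 1.15, 0.398, 1.34 and 0.491 CPM at 6 weeks. It fell by 2.00 on the log2 scale (SE 0.48, adjusted p = 0.0263). Acod1 was near the floor, at 6, 8, 13 and 17 counts per library with 2DG. It had 67, 23, 38 and 37 counts without 2DG at 10 weeks and 8 to 28 at 6 weeks, so its change is limited by depth. Without untreated replicate 5 it fell by 1.56 and no longer passed, nor did it pass without 2DG replicate 9, 10 or 11. The 10 summed macrophage markers averaged 2684 ± 108 CPM with 2DG and 2901 ± 1137 CPM without it at 10 weeks (SD, n = 4 each). Of the 10, 6 had a log2 change below 0 and 1 passed as lower, beside 5.26% of all genes. The 8 summed monocyte markers averaged 2463 ± 92.9 and 2554 ± 600.3 CPM in those groups, 7 of the 8 had a log2 change below 0 (median -0.31), and 2 passed as lower. The part of either cell type in the Acod1 value was not tested.

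**Figure D5:**
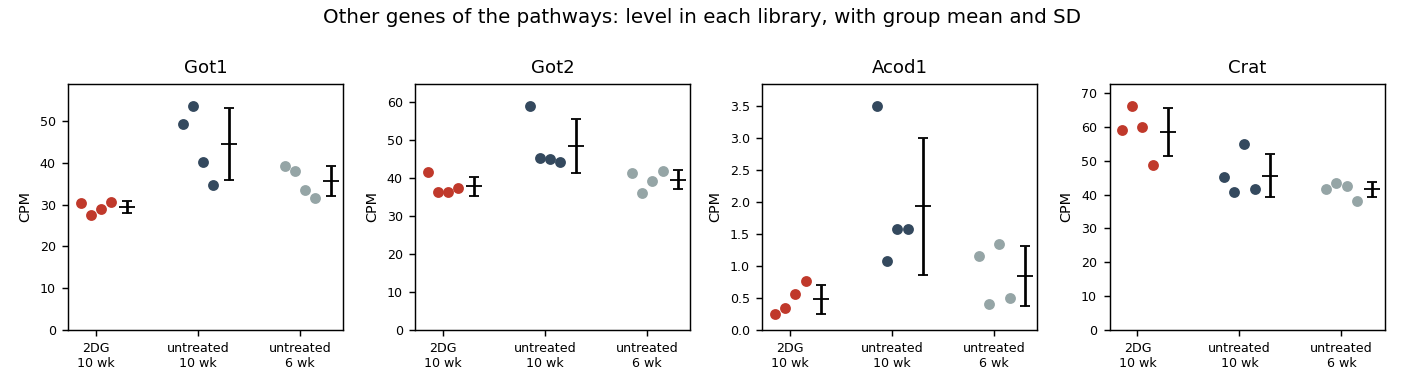
Level in CPM of 4 pathway genes that are not among the 37, in each library (points), by group, with the group mean and SD (n = 4). Got1, Got2 and Acod1 are lower in all 4 2DG libraries than in any untreated 10-week library, and Crat, chosen after its values were seen, overlaps between those groups (adjusted p = 0.0553).

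Some member counts may include reads of a neighbour, because the library kit does not mark strand. Exon bases are shared with another annotated gene by 8 of the 37 members, 6 of them with a gene on the opposite strand. The longest such overlap is 1151 bases between Acadvl and Dvl2, whose own count ran from 409 to 641 per library beside 546 to 760 for Acadvl. Mdh1 shares 52 bases with Wdpcp, which had 58 to 116 counts beside 2596 to 4559 for Mdh1. Pcx, Acads, Acadl, Me2, Suclg2, Dlst and Idh1 share none. Cpt1b shares 2744 bases with the read-through gene Gm44502, which was listed at 0 in every library, and Hadha shares 75 bases with Garem2, which had at most 3 counts.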

How the data were processed

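RNA from 12 spleen samples was sequenced as poly(A)-selected TruSeq RNA v2 libraries, which do not mark strand. The deposited file is a single matrix of raw gene counts, all whole numbers. The submitters' processing notes name Bowtie2 2.2.0, RSEM 1.2.12 and GRCm38; the treatment of reads that fit several genes was not stated there. Symbols came from GENCODE M21 (GRCm38), which matched 53620 of 53715 identifiers.

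Counts were tested with edgeR 4.0.16 in R 4.3.3 (TMM, filterByExpr by group, robust glmQLFit and glmQLFTest) over all 12 libraries as 3 group means. SE is the log2 change over the square root of F, and 95% intervals use the t quantile. Alternatives were DESeq2 1.42.0, limma 3.58.1 voom with quality weights, median-of-ratios scaling, no low-count filter, a 1 CPM minimum in 4 libraries, only the 2 groups compared, immunoglobulin genes removed, and each library left out in turn. Leaving out untreated replicates 6 and 8 together was chosen after seeing the data.

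The members and the gene lists were chosen with earlier results of these data known. Values in every library are given for members past the threshold, the 6 members of smallest p in 2DG against untreated at 10 weeks, the 3 of smallest p in each other comparison, the 3 highest and 3 lowest log2 changes in the first comparison among members averaging 2 or more on the log2 CPM scale, and Cs, Idh1, Idh2, Cpt1a, Cpt1b, Hadha, Ppargc1a and Ppargc1b. Hadhb was added as the partner of Hadha after its values were seen. Other pathway genes are named where they passed.

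Whole-gene counts of Cd8a (1052 to 1414 with 2DG, 582 to 885 untreated at 10 weeks, 1152 to 1308 at 6 weeks) and Il15 (111 to 141, 129 to 169 and 82 to 127 in those groups) do not check the targeted alleles.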

Additional observations from a re-analysis of the deposited data

Results flagged for a closer look

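In each group of 4 libraries the highest and the lowest value of each member were compared with their nearest neighbour by Dixon's criterion, 111 groups in all, and 3 stood apart; chance alone sets apart about 1 in 20 groups. Echs1, the short-chain enoyl-CoA hydratase, was lowest at 36.9 CPM in 2DG replicate 10, against 38.3 to 38.5 CPM in the other 2DG libraries. Echs1 was also lowest at 36.2 CPM in 6-week replicate 1, against 39.3 to 39.6 CPM in the other 6-week libraries. It shares 142 exon bases with Paox on the opposite strand. Etfb, a subunit of the electron transfer flavoprotein, was highest at 10.7 CPM in untreated 10-week replicate 6, against 8.70 to 8.97 CPM in the other libraries of that group.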

How the results depend on the processing

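For 2DG against untreated spleens at 10 weeks, 0 members were called by edgeR, 3 by DESeq2, 4 without untreated replicates 6 and 8 (Mdh1, Me2, Acadl and Acads), and 0 to 3 with each library left out: Mdh1 without untreated replicate 6, Pcx without untreated replicate 7 or 2DG replicate 12, and Acadl, Acads and Hadhb without untreated replicate 8. Of all genes, 11.4% were called by DESeq2 in this comparison and 16.7% without replicates 6 and 8. The share was 9.71% without untreated replicate 6, 8.43% without replicate 7 and 11.8% without replicate 8. Without 2DG replicate 12 it was 6.59%. The median log2 change of the members was -0.060 without replicates 6 and 8. It ran from -0.040 to 0.014 with each library left out. With age, 0 to 2 members were called (2, Aco1 and Acads, without untreated replicate 8), and the median was 0.040 by voom and 0.044 to 0.079 with each library left out. For 2DG against 6 weeks the count was 1 by DESeq2 (Pcx), 3 with only the 2 groups compared (Pcx, Acadl and Acaa2), 3 by voom (Dlst, Pcx and Acaa2) and 0 to 1 with each library left out. Over all genes, the calls were 1376 in the first comparison (514 to 3193 under the alternatives), 1 with age (0 to 2303; 682 by DESeq2 and 1563 without untreated replicate 8) and 24 in the third (1 to 1665). The cause was not tested. Over single members and alternatives, 94 values changed sign, none of them called, and 25 newly passed. Cpt1b could not be fitted under the filter of at least 1 CPM. No paired analysis was possible because the replicate numbers run from 1 to 12 across the groups and none is shared. At 11 to 21 counts per library, Cpt1b is limited by depth.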

Other observations

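Several neighbours of the pathway came close to the threshold with 2DG; they were chosen after their values were seen. Crat, carnitine acetyltransferase, which buffers acetyl-CoA against free carnitine, stood at 59.1, 66.2, 60.1 and 48.9 CPM with 2DG, against 45.0, 40.8, 54.8 and 41.7 CPM at 10 weeks without it and 41.8, 43.5, 42.6 and 38.2 CPM at 6 weeks (adjusted p = 0.0553 at 10 weeks and 0.0746 against 6 weeks, edgeR). Acsl1, which activates long-chain fatty acids to acyl-CoA, stood at 110.0, 137, 125 and 83.6 CPM with 2DG, against 72.1, 79.2, 106 and 67.6 CPM at 10 weeks without it and 81.4, 72.8, 57.7 and 63.0 CPM at 6 weeks (adjusted p = 0.108 and 0.0903). For both, replicate 12 was the lowest of the 2DG group and replicate 7 the highest of the untreated 10-week group. The same held for Pcx and for the sums of erythroid, dividing cell and platelet markers. The part of these cell types in the Crat and Acsl1 values was not tested. Cd36, a fatty acid transporter and scavenger receptor, stood at 258, 298, 253 and 233 CPM with 2DG, against 139, 232, 201 and 201 CPM at 10 weeks without it, with no overlap and an adjusted p of 0.0663. Fabp5, a fatty acid binding protein, stood at 21.0, 18.7, 23.1 and 23.3 CPM with 2DG, against 71.8, 25.3, 40.9 and 32.0 CPM at 10 weeks without it, again with no overlap, at an adjusted p of 0.0549.

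Pdk4, the kinase that shuts pyruvate out of the cycle by inhibiting pyruvate dehydrogenase, was the most scattered of these genes. It stood at 37.5, 27.4, 35.6 and 54.0 CPM with 2DG, against 2.71, 67.1, 5.65 and 21.4 CPM at 10 weeks without it and 21.2, 20.7, 7.80 and 16.4 CPM at 6 weeks. The untreated 10-week libraries thus spanned the whole range seen in the other groups, the log2 change with 2DG was 0.67 (SE 0.79, adjusted p = 0.660), and the interval of the fold ran from 0.472 to 5.38.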
